A study of Mus musculus with 12 samples.

Results

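Endothelial identity genes are those whose products set the cells lining blood vessels apart from other cells. The 42 genes described here were listed by name, and 41 of them were found among the 19938 genes measured, each read from the probe set that was brightest on average over the 12 arrays. The listed gene Selp is not analysed here. The study set mouse lung endothelial cells lacking CD47, a cell surface receptor for thrombospondin-1, beside wild-type lung endothelial cells and an embryonic stem cell line, and RNA of each sample was measured on 1 array. The values are log2 RMA signals, so that a difference of 1 is 2-fold. Levels were compared within a probe set, except where members are counted against the median of all genes. Where 3 values are given for a group, they are its arrays 1, 2 and 3.

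Each of the 4 groups had 3 arrays. The null_EB group holds embryoid bodies, which are floating cell aggregates, made from CD47 null lung endothelial cells of C57Bl/6 strain that had been passaged for 6 months. They formed within 24 to 36 h in basal endothelial medium with no serum. The null_EC group holds CD47 null lung endothelial cells of the same strain, cultured in Endothelial Growth Medium-2 (EGM2), and the WT_EC group holds wild-type C57Bl/6 lung endothelial cells cultured in the same medium. The ESC group is V6.5, an established mouse embryonic stem cell line, kept with leukemia inhibitory factor (LIF) at 1000 IU/ml in medium with 15% serum. Passage was given for null_EB alone, and null_EB differed from null_EC in medium and serum as well as in form, so these differences cannot be told apart. The labels do not say how the lung cells were isolated or whether the replicates came from separate animals or cultures, so p-values measure the spread between these arrays, which may be technical.

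As background, endothelial identity is set by ETS family transcription factors such as Erg and Fli1, together with Sox, GATA and Tal1 complexes. These drive the genes of the cell junctions (Cdh5, the cadherin that joins neighbouring endothelial cells, and Esam and Cldn5), of the angiopoietin receptors Tek and Tie1, and of proteins that keep blood from clotting (Thbd and Procr). Arterial cells carry the ligand Efnb2 and venous cells its receptor Ephb4, and lymphatic endothelium depends on Prox1. Several of the listed genes are also known from other cells, such as Cd34 and Tal1 in blood progenitors, Lyve1 in macrophages, and Thbd and Vcam1 in mesothelium or stroma.

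The arrays of null_EB, null_EC and ESC were close to each other within each group, with pair correlations over all genes of 0.994 to 0.996 in null_EB, 0.996 to 0.997 in null_EC and 0.994 to 0.996 in ESC. The 3 WT_EC arrays stood further apart, at 0.954 to 0.968, and the median SD per gene was 0.2135 log2 units in WT_EC, against 0.0847 in ESC. Cd47, the deleted gene, read 10.99, 10.89 and 10.93 in null_EB, 10.97, 11.11 and 11.02 in null_EC, 12.59, 11.29 and 12.48 in WT_EC and 11.23, 10.96 and 11.33 in ESC. The array labelled WT_EC 2 thus lay nearer to the null and ESC arrays than to the other WT_EC arrays. Which exons this probe set reads is not known here, so that it may lie outside the deleted part and is no check of the genotype.

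The labelled cell type was set beside 4 endothelial markers, Cdh5, Esam, Erg and Tie1. Cdh5 read 7.01, 7.09 and 7.04 in null_EB, 7.27, 7.11 and 7.09 in null_EC, 9.10, 6.85 and 9.52 in WT_EC and 7.02, 6.96 and 6.94 in ESC. Esam, an adhesion molecule of endothelial junctions, read 7.04, 7.11 and 7.07 in null_EB, 7.30, 7.25 and 7.37 in null_EC, 10.34, 6.97 and 9.53 in WT_EC and 7.20, 6.98 and 6.97 in ESC. Both genes were high on WT_EC 1 and WT_EC 3, and on WT_EC 2 they lay at the level of the stem cells. On the null arrays neither gene exceeded the highest ESC array by more than a fraction of a log2 unit. Erg, the ETS factor that holds endothelial cells in their state, read 6.19 to 6.31 in null_EB, 6.27 to 6.36 in null_EC, 6.70, 6.06 and 6.73 in WT_EC, and 6.28 to 6.35 in ESC. Tie1 read 7.22 to 7.34 in null_EB, 7.23 to 7.32 in null_EC, 7.42, 7.19 and 7.90 in WT_EC, and 7.36 to 7.42 in ESC. The 6 null arrays and WT_EC 2 therefore lacked the signal of Cdh5 and Esam seen on WT_EC 1 and WT_EC 3. Erg and Tie1 separated the arrays little. On WT_EC 1 and WT_EC 3 they exceeded the highest ESC array by less than 1 log2 unit, if at all. Other members, such as Heg1, Cd34, Ptprb, Fli1, Thbd and Vcam1, lay above every ESC array on the 6 null arrays. Tek, Eng and Pecam1 had more signal in ESC than on the null arrays, so the ESC level is not free of endothelial gene signal. In array data of whole cultures, fewer cells of a type and less RNA per cell cannot be told apart.

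**Figure D1:**
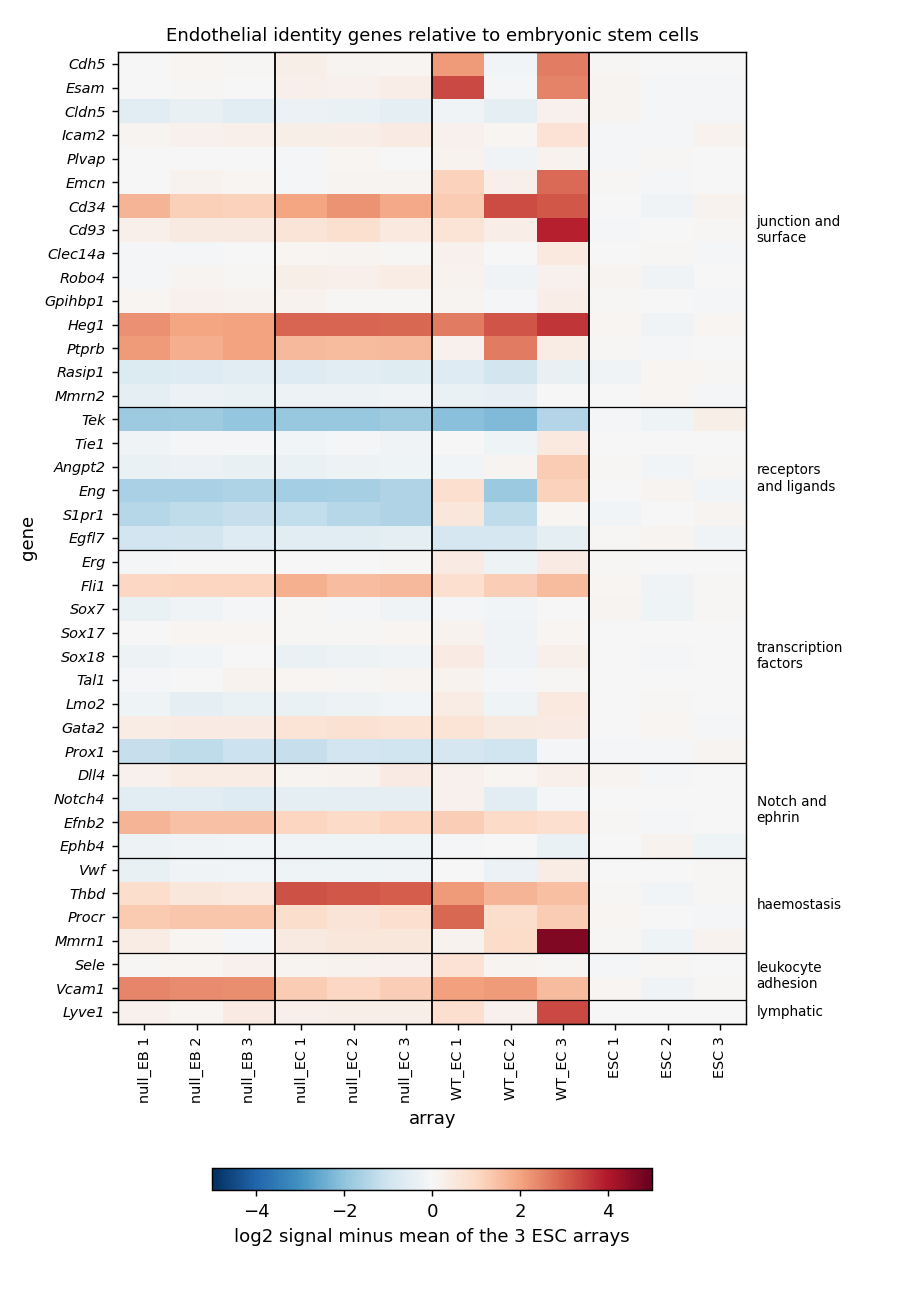
Signal of the 41 endothelial identity genes on the 12 arrays, each gene as its log2 difference from its mean over the 3 ESC arrays (colour), with genes in rows by role and arrays in columns by group. WT_EC 1 and WT_EC 3 are raised for Cdh5, Esam and Emcn while WT_EC 2 and the 6 null arrays are near the ESC level, and Heg1, Cd34 and Vcam1 are raised on the null and WT_EC arrays alike.

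Against the stem cells, some members were higher in the CD47 null cells, others were lower, and many lay near the ESC level. On the null_EB arrays 14, 18 and 19 of the 41 genes lay above the highest ESC array, on the null_EC arrays 21, 24 and 23, and on the WT_EC arrays 31, 15 and 31. Of all 19938 genes, 43.6% to 51.9% did so in null_EB, 48.9% to 51.4% in null_EC and 50.1%, 40.6% and 45.8% on the WT_EC arrays. Without a margin, the counts on the null arrays were thus near the background of all genes or below it, and those of WT_EC 1 and WT_EC 3 were higher. With a margin of 1 log2 unit, 6, 5 and 5 genes exceeded the highest ESC array in null_EB, 7, 5 and 7 in null_EC and 9, 6 and 14 on the WT_EC arrays. Of all genes, 5.27% to 5.79% did so in null_EB, 6.15% to 6.37% in null_EC and 5.39% to 7.89% in WT_EC, a smaller share than that of the members on each array. The median signal of the list was 7.22 to 7.34 in null_EB, 7.30 to 7.37 in null_EC, 7.75, 7.19 and 8.13 in WT_EC and 7.44 to 7.47 in ESC.

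A gene was called when its adjusted p (limma, Benjamini-Hochberg across the 19938 genes of each comparison) was under 0.05. In null_EB against ESC, 19 of the 41 genes were called, 10 higher and 9 lower, beside 44.8% of all genes (23% higher and 21.8% lower). In null_EC against ESC, 15 were called, 8 higher and 7 lower, beside 47.9% of all genes (25.1% and 22.9%), and in WT_EC against ESC 15 were called, 11 higher and 4 lower, beside 47.1% (21.7% and 25.4%). A called change of at least 2-fold was found for 11 members in null_EB (15% of all genes), 11 in null_EC (16.5%) and 11 in WT_EC (15.7%). The median difference from ESC over the list was 0.04 in null_EB, 0.10 in null_EC and 0.19 in WT_EC, against 0.08, 0.09 and 0.07 over all genes. Of the members, 46.3% were called in null_EB and 36.6% in each of null_EC and WT_EC, near or below the shares of all genes, and 26.8% were called at 2-fold or more in each, above them. Leaving out WT_EC 2 turned 15 calls in WT_EC against ESC into 25, and 47.1% of all genes into 56.2%. The 3 comparisons share the ESC arrays.

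The genes that were higher in CD47 null cells than in stem cells were surface and adhesion proteins, an ephrin and a Notch ligand, protein C pathway receptors and the factors Fli1 and Gata2. Those raised at least 2-fold in both null groups were Heg1, Cd34, Ptprb, Vcam1, Efnb2 and Fli1, and Thbd and Procr passed that size in 1 null group each. The promoters of Heg1 and Cd34, which carry the signal shared by all 3 lung cell groups, are shown from 250 bases before to 50 bases after the RefSeq start (GRCm38.p6), with each ETS core GGAA, on either strand (TTCC), in capitals; Heg1 has 4 such cores and Cd34 has 5.
Heg1 promoter, chr16:33684216-33684515, plus strand: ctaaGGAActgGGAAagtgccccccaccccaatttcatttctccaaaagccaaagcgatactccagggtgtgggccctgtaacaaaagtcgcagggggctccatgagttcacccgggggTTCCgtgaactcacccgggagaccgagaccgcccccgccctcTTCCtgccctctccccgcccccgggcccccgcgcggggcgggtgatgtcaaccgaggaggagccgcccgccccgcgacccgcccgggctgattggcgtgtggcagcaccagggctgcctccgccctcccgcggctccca
Cd34 promoter, chr1:194938571-194938870, plus strand: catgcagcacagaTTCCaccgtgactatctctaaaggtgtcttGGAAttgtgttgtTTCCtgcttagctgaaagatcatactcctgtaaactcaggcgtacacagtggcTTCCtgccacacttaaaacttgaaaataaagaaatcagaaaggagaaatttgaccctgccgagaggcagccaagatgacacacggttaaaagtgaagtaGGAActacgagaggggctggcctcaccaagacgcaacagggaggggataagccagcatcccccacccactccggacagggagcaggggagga

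Heg1, a transmembrane mucin-like receptor of endothelium that links to the junction protein KRIT1, read 10.99, 10.70 and 10.75 in null_EB, 11.62, 11.65 and 11.58 in null_EC, 11.31, 11.86 and 12.28 in WT_EC and 8.81, 8.54 and 8.82 in ESC. All 9 lung cell arrays lay above the ESC arrays, by 2.09 log2 units in null_EB (SE 0.196, adjusted p = 6.04e-06), 2.89 in null_EC (SE 0.196, adjusted p = 4.06e-07) and 3.09 in WT_EC (SE 0.196, adjusted p = 3.07e-07). Its second probe set gave 9.58 to 9.70 in null_EB, 10.32 to 10.47 in null_EC, 10.05, 10.53 and 11 in WT_EC and 7.85 to 8.14 in ESC, with the groups in the same order. Cd34, a sialomucin of capillary endothelium and of blood progenitors, read 10.73, 10.19 and 10.16 in null_EB, 10.98, 11.26 and 10.91 in null_EC, 10.28, 12.29 and 12.12 in WT_EC and 8.99, 8.85 and 9.20 in ESC. It was higher than in ESC by 1.35 in null_EB (SE 0.422, adjusted p = 0.023), 2.04 in null_EC (SE 0.422, adjusted p = 0.00201) and 2.55 in WT_EC (SE 0.422, adjusted p = 0.000463). The call in null_EB was lost without null_EB 1, ESC 1 or ESC 2, at an adjusted p of at most 0.0803. The array with the highest Cd34 signal was WT_EC 2, the WT_EC array with no raised Cdh5 or Esam.

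Ptprb, the vascular endothelial phosphatase that acts on Tek and on Cdh5, read 9.39, 9.09 and 9.27 in null_EB, 8.90, 8.86 and 8.88 in null_EC, 7.48, 9.85 and 7.63 in WT_EC and 7.33, 7.20 and 7.25 in ESC. Within WT_EC, WT_EC 2 had the most Ptprb signal and the least Cdh5 signal. Against ESC it was higher by 1.99 in null_EB (SE 0.476, adjusted p = 0.0053) and 1.62 in null_EC (SE 0.476, adjusted p = 0.0159). In null_EC against WT_EC it was not called. Without WT_EC 2 it was higher by 1.33 and called, a result that follows in part from leaving out the array with the most Ptprb signal.

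Fli1, the ETS factor expressed in endothelium and blood cells, read 8.40, 8.43 and 8.42 in null_EB, 9.13, 8.89 and 8.97 in null_EC, 8.19, 8.58 and 8.95 in WT_EC and 7.47, 7.19 and 7.43 in ESC. All 9 lung cell arrays were above ESC, by 1.05 in null_EB (SE 0.161, adjusted p = 0.000259), 1.63 in null_EC (SE 0.161, adjusted p = 8.05e-06) and 1.21 in WT_EC (SE 0.161, adjusted p = 9.2e-05). Gata2, a zinc finger factor of endothelium and blood progenitors, was also called higher in all 3 groups, by 0.41 in null_EB, 0.72 in null_EC and 0.52 in WT_EC. The other factors of the list did not follow them. Erg, the SoxF factors Sox7 and Sox17, which act in arterial fate, and Tal1, of the blood and endothelial programme, were called in none of the 6 comparisons. Over all 12 arrays Sox7 lay between 6.74 and 7.22, Sox17 between 6.44 and 6.80 and Tal1 between 7.69 and 8.0.

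**Figure D2:**
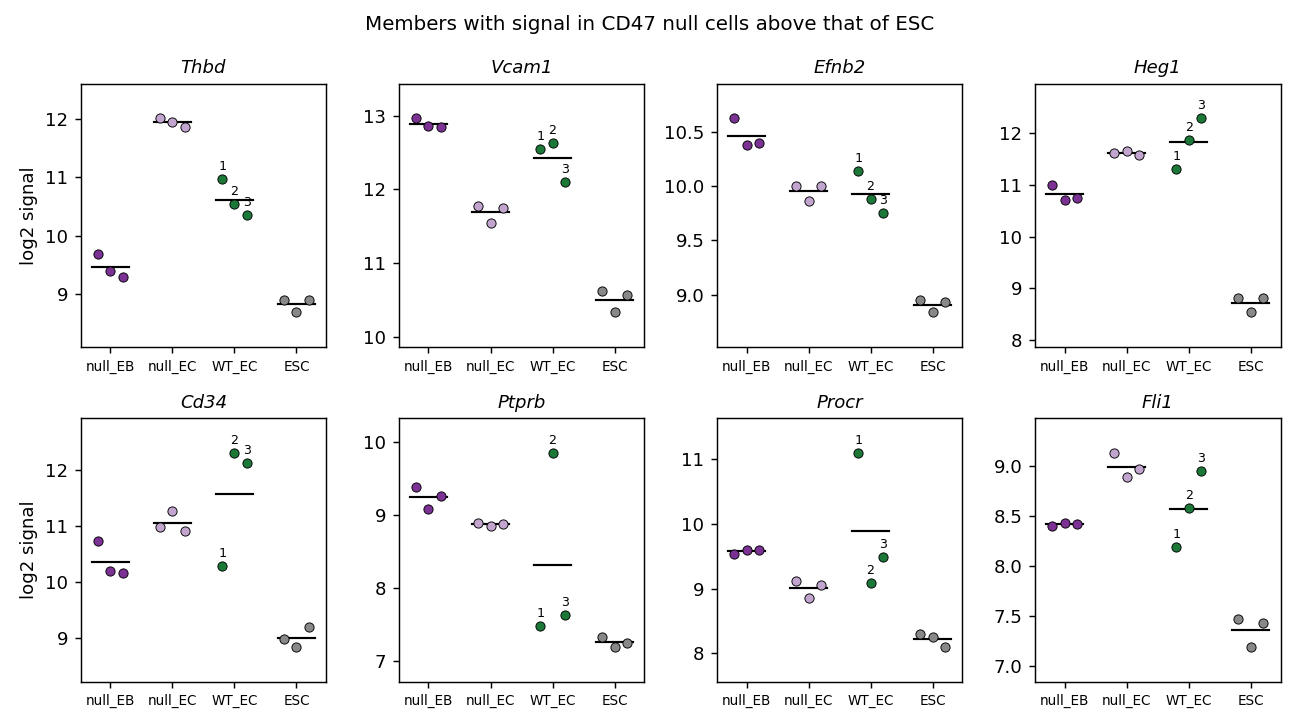
Log2 RMA signal on each array (points) of members raised in CD47 null cells over stem cells, with groups along the x axis in the order null_EB, null_EC, WT_EC and ESC. Heg1, Cd34, Vcam1 and Efnb2 lie above the ESC arrays on all 9 lung cell arrays, and Thbd is highest in null_EC, at 11.87 to 12.01.

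A second set of members was lower in the CD47 null cells than in the stem cells, and Tek, Prox1, Egfl7 and Rasip1 were called lower in WT_EC too. Tek, the angiopoietin receptor also called Tie2, read 6.87, 6.88 and 6.74 in null_EB, 6.79, 6.76 and 6.89 in null_EC, 6.57, 6.47 and 7.22 in WT_EC and 8.60, 8.45 and 8.97 in ESC. The ESC arrays were the highest in all 3 comparisons, and Tek was lower by 1.85 in null_EB (log2 difference -1.85, SE 0.183, adjusted p = 9.73e-06), with -1.86 in null_EC (SE 0.183, adjusted p = 8.2e-06) and -1.92 in WT_EC (SE 0.183, adjusted p = 7.33e-06). Prox1, the homeobox factor that sets lymphatic identity, read 5.93, 5.82 and 6.01 in null_EB, 5.95, 6.16 and 6.12 in null_EC, 6.27, 6.10 and 7.04 in WT_EC and 7.0, 7.06 and 7.24 in ESC. Its log2 difference from ESC was -1.18 in null_EB (adjusted p = 0.000472) and -1.02 in null_EC (adjusted p = 0.00121). Eng, the endoglin co-receptor for TGF-beta family ligands, and S1pr1, the sphingosine-1-phosphate receptor of the endothelial barrier, were likewise lower in the null cells than in ESC, and their values stand with those of WT_EC. Egfl7, a secreted factor of developing vessels, Rasip1, a Ras-interacting protein needed for vessel lumens, and Notch4, an endothelial Notch receptor, were called lower than ESC in both null groups by less than 2-fold, and each of these calls was lost with equal housekeeping signal (adjusted p of 0.0882 and 0.221 for Egfl7, 0.172 and 0.12 for Rasip1, 0.117 and 0.0987 for Notch4, in null_EB and null_EC). Cldn5 and Mmrn2, a matrix protein of endothelium, were called lower than ESC in null_EB but not in null_EC, and neither was called between null_EB and null_EC. Both calls were lost with equal housekeeping signal (adjusted p of 0.428 and 0.603 in limma). That of Cldn5 was also lost without null_EB 1, null_EB 3 or ESC 1, and that of Mmrn2 without null_EB 1 or ESC 2. In WT_EC against ESC, the Prox1 call was lost under 6 of 13 alternatives, and those of Egfl7 and Rasip1 with equal housekeeping signal.

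In null_EC against WT_EC, the comparison that bears on loss of CD47 in cells grown in the same medium, 2 of the 41 genes were called (13.1% of all genes): Thbd was higher (8.12% of all genes were) and Vcam1 lower (5%). Passage and isolation are not given for these groups, and fibroblast and leukocyte markers were higher on all or some WT_EC arrays. Genotype cannot be told apart from these differences. Thbd, the thrombin receptor that turns on protein C, was 2.5-fold higher, at 11.94 ± 0.0742 in null_EC against 10.62 ± 0.316 in WT_EC (SD, n = 3 each; log2 difference 1.32, SE 0.151, adjusted p = 0.000269 in limma). Vcam1, an adhesion molecule that binds leukocyte integrins, was 1.67-fold lower, at 11.69 ± 0.125 in null_EC against 12.43 ± 0.288 in WT_EC (SD, n = 3 each; log2 difference -0.74, SE 0.136, adjusted p = 0.00495 in limma). The median of the list was -0.19 against 0.03 over all genes, and in 7 members the groups did not overlap (25.5% of all genes). The Vcam1 call was lost with the 6 arrays of these groups alone, at adjusted p = 0.0792 in limma.

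The spread of the WT_EC arrays bore on this comparison. Without WT_EC 2, 18 members were called, 2 higher (Thbd and Ptprb) and 16 lower, and of all genes 27.3% were called, 17.2% higher and 10.1% lower. Without WT_EC 1, 6 were called (17.3% of all genes), and without WT_EC 3, 3 were called (15.6%). With all arrays, Cdh5 had a log2 difference of -1.33 (SE 0.510, adjusted p = 0.121 in limma), Esam of -1.64 (SE 0.624, adjusted p = 0.119), Eng of -1.68 (SE 0.591, adjusted p = 0.0924), Emcn of -1.35 (adjusted p = 0.0861) and S1pr1 of -1.18 (adjusted p = 0.0521). Without WT_EC 2 the log2 differences of these genes were -2.15 for Cdh5 (adjusted p = 1.15e-06 in limma), -2.62 for Esam (adjusted p = 6.68e-06), -2.63 for Eng (adjusted p = 2.6e-07), -1.92 for Emcn and -1.72 for S1pr1, and all 5 were called. Each array was left out in turn, but WT_EC 2 is the WT_EC array with the least signal of these 5 genes. Their calls without it follow in part from which array was left out and are no separate support for a difference. The other 11 genes called lower without WT_EC 2 were Lyve1 at -1.79, Procr at -1.28, Lmo2 at -0.67, Vcam1 at -0.64, Prox1 at -0.57, Sox18 at -0.56, Notch4 at -0.54, Erg at -0.41, Tie1 at -0.38, Vwf at -0.38 and Cldn5 at -0.36.

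Within WT_EC, the endothelial list split the arrays. WT_EC 2 was the lowest of the 3 WT_EC arrays in 28 of the 41 genes (39.3% of all genes), and WT_EC 3 was the highest in 26 (26.5% of all genes). On WT_EC 1, WT_EC 2 and WT_EC 3, 22, 7 and 27 members lay above all 6 null arrays, against 34%, 19.6% and 23.1% of all genes, and 3, 14 and 4 members lay below all 6, against 33.6%, 34.9% and 35.2% of all genes. Cdh5, Esam, Eng and S1pr1 were at least 1 log2 unit above all null arrays on WT_EC 1 and WT_EC 3 and not above them on WT_EC 2. Another 11 genes lay above all null arrays on WT_EC 1 and WT_EC 3 but not on WT_EC 2, by less on at least 1 of them: Tie1, Vwf, Erg, Sox18, Cldn5, Plvap, Clec14a, Lmo2, Notch4, Lyve1 and Prox1. Emcn, Mmrn1, Cd93, Lyve1 and Angpt2 exceeded the null arrays by at least 1 log2 unit on WT_EC 3 and by less, or not at all, on the other WT_EC arrays.

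The promoters of Emcn and Eng, which were raised on WT_EC 1 and WT_EC 3, are shown over the same window (RefSeq, GRCm38.p6), with the ETS cores GGAA and TTCC in capitals; Emcn has 6 and Eng has 4.
Emcn promoter, chr3:137340828-137341127, plus strand: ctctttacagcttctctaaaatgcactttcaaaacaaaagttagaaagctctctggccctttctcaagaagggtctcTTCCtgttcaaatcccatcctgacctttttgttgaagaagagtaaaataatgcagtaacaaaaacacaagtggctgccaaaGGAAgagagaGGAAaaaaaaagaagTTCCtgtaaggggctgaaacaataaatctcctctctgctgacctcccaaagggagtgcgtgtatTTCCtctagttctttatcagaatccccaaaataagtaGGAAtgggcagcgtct
Eng promoter, chr2:32646345-32646644, plus strand: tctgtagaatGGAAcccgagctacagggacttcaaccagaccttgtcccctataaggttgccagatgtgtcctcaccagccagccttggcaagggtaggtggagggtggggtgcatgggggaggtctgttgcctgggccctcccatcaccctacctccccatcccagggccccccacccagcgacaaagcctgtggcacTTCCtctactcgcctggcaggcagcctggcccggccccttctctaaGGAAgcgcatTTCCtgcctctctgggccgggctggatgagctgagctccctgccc

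Eng read 7.80, 7.81 and 7.89 in null_EB, 7.76, 7.77 and 7.93 in null_EC, 10.29, 7.59 and 10.61 in WT_EC and 9.43, 9.57 and 9.32 in ESC. S1pr1 read 6.77, 6.94 and 7.06 in null_EB, 6.97, 6.79 and 6.72 in null_EC, 8.79, 6.93 and 8.31 in WT_EC and 8.06, 8.21 and 8.36 in ESC. Both genes were thus low on the null arrays and on WT_EC 2, and the stem cells had more of them than the null cells did. Against ESC, Eng had a log2 difference of -1.61 in null_EB (SE 0.591, adjusted p = 0.0461) and -1.62 in null_EC (SE 0.591, adjusted p = 0.0421), and S1pr1 of -1.29 in null_EB (SE 0.355, adjusted p = 0.0121) and -1.38 in null_EC (SE 0.355, adjusted p = 0.00769). Both Eng calls were lost when any array of the groups compared was left out (adjusted p of 0.0878 to 0.112 in null_EB and 0.0803 to 0.104 in null_EC). Emcn, the endomucin of venous and capillary endothelium, read 5.04, 5.21 and 5.11 in null_EB, 4.96, 5.14 and 5.16 in null_EC, 6.18, 5.29 and 7.85 in WT_EC and 5.07, 4.96 and 5.03 in ESC. All 3 WT_EC arrays lay above the other 9 for Emcn, WT_EC 2 by the least.

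**Figure D3:**
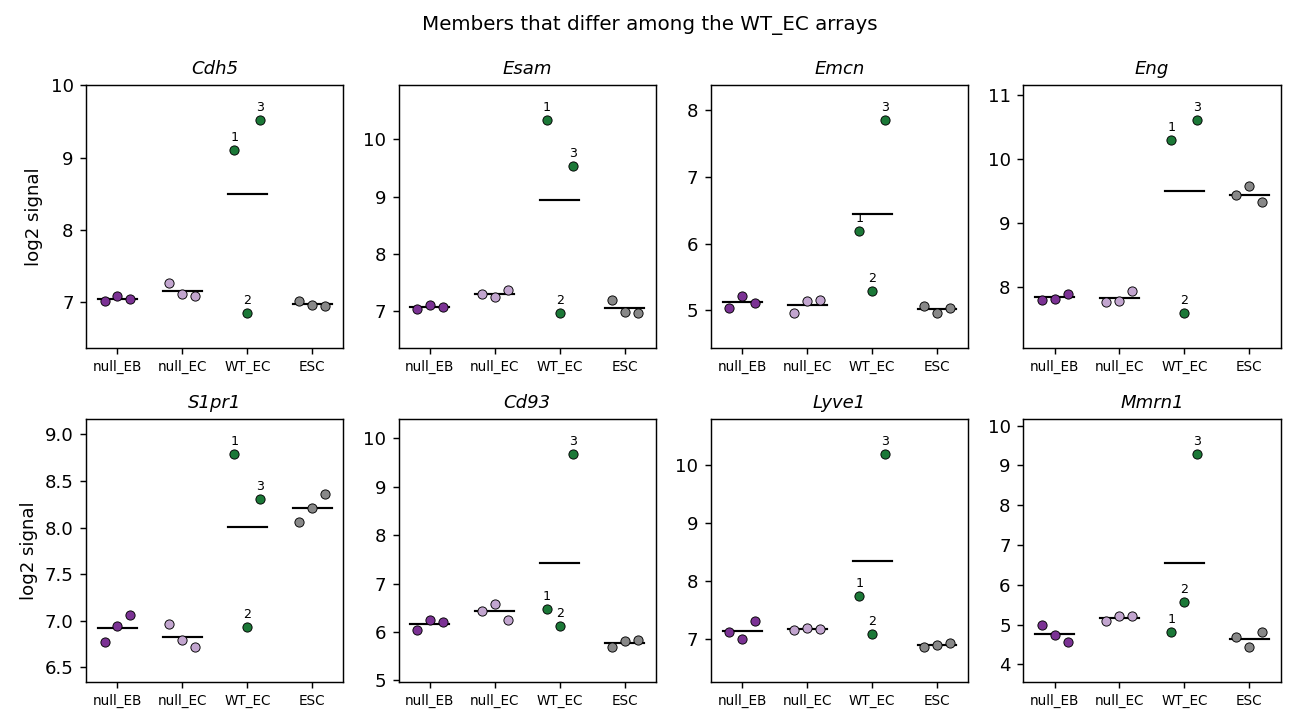
Log2 RMA signal on each array (points) of selected members that differed among the WT_EC arrays, with the WT_EC arrays numbered. Groups lie along the x axis in the order null_EB, null_EC, WT_EC and ESC. The selection is not a ranking by range. Over the WT_EC arrays, Ptprb (2.38), Cd34 (2.01) and Procr (2.0) had wider log2 ranges than S1pr1 (1.86). Of these, Ptprb and Cd34 were highest on WT_EC 2 and Procr on WT_EC 1. WT_EC 2 lies with the null arrays for Cdh5, Esam, Eng and S1pr1, and WT_EC 3 alone is high for Mmrn1, Cd93 and Lyve1.

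WT_EC 3 differed from the other WT_EC arrays in a further set. Mmrn1, the multimerin of platelets and lymphatic endothelium, read 5.0, 4.74 and 4.56 in null_EB, 5.10, 5.22 and 5.21 in null_EC, 4.81, 5.56 and 9.29 in WT_EC and 4.69, 4.44 and 4.81 in ESC. Cd93, a C-type lectin of endothelium and myeloid cells, read 6.03, 6.24 and 6.21 in null_EB, 6.44, 6.58 and 6.25 in null_EC, 6.47, 6.13 and 9.68 in WT_EC and 5.69, 5.81 and 5.84 in ESC. Lyve1, the hyaluronan receptor of lymphatic endothelium and some macrophages, read 7.12, 7.01 and 7.32 in null_EB, 7.16, 7.20 and 7.18 in null_EC, 7.75, 7.10 and 10.19 in WT_EC and 6.87, 6.91 and 6.93 in ESC. In each of the 3 genes WT_EC 3 was the highest array, and none was called in null_EC against WT_EC with all arrays. Angpt2, the Tek ligand that is released from endothelium, read 6.32, 6.59 and 7.71 in WT_EC, and 6.09 to 6.22 on the 6 null arrays.

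Markers of other cell types also differed among the WT_EC arrays, not all in the same way. The median signal of 15 leukocyte genes was 6.81 to 6.84 in null_EB, 6.83 to 6.99 in null_EC, 7.69, 6.75 and 9.62 on WT_EC 1, WT_EC 2 and WT_EC 3, and 6.78 to 6.80 in ESC, and 12 of the 15 were highest on WT_EC 3. The leukocyte gene Ptprc (CD45) read 9.01 on WT_EC 3 and 6.21 to 6.49 on the other 11 arrays, and Lyz2, lysozyme of macrophages, read 5.41 to 5.91 on the null arrays, 9.05, 5.44 and 12.31 in WT_EC and 6.82 to 7.22 in ESC. The median of 5 measured lymphatic genes, a list that overlaps Lyve1 and Prox1, was 6.88 to 6.98 in null_EB, 7.05 to 7.10 in null_EC, 7.37, 6.86 and 8.30 in WT_EC and 7.06 to 7.24 in ESC. The 10 fibroblast genes had medians of 8.86 to 9.06 in null_EB, 8.96 to 9.51 in null_EC, 10.71, 10.93 and 11.61 in WT_EC and 9.54 to 9.74 in ESC. Their median was thus not lowest on WT_EC 2, unlike those of the leukocyte and lymphatic genes. The part of these cell types in the differences of Lyve1, Cd93, Mmrn1 and the other members was not tested.

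Genes of mesothelium, the cell layer that covers the lung, were high against ESC in all lung cell groups. Its 8 genes had array medians of 11.28 to 11.44 in null_EB, 12.13 to 12.21 in null_EC, 10.78 to 12.12 in WT_EC and 7.66 to 7.79 in ESC, and all 8 exceeded the highest ESC array on every array of the 3 lung cell groups. Msln, mesothelin, read 12.08, 11.96 and 11.98 in null_EB, 12.15, 12.03 and 12.22 in null_EC, 11.17, 11.5 and 12.35 in WT_EC and 7.78 to 7.90 in ESC. Upk3b, a uroplakin of mesothelium, read 12.05 to 12.25 in null_EB, 13.03 to 13.06 in null_EC, 11.06, 12.28 and 12.5 in WT_EC and 7.64 to 7.83 in ESC. Thbd, the member with the highest called fold in null_EC against ESC (8.67-fold), is known from mesothelium as well as endothelium, and the part of these cells in the values of Thbd, Cd34, Heg1 and Vcam1 was not tested. Smooth muscle and pericyte genes had medians of 7.5 to 7.66 in null_EB, 7.81 to 7.91 in null_EC, 8.69, 7.52 and 8.23 in WT_EC and 8.62 to 8.76 in ESC. Lung epithelial genes had medians of 7.15 to 7.44, 7.22 to 7.46, 7.53 to 7.63 and 8.11 to 8.31 in the same order of groups, and 4 measured genes of platelets and red cells of 6.48 to 6.63, 6.42 to 6.48, 6.26 to 7.39 and 7.15 to 7.23. The 8 pluripotency genes had array medians of 6.40 to 6.86 on the 9 lung cell arrays and of 11.89 to 11.99 in ESC.

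In null_EB against null_EC, the comparison of aggregates in serum-free medium with CD47 null cells in EGM2, 4 of the 41 genes were called (5.4% of all genes), 2 higher (2.9%) and 2 lower (2.5%). Thbd was lower and Vcam1 higher, each the other way round from null_EC against WT_EC, with which this comparison shares the null_EC arrays. Efnb2 was higher and Heg1 lower. The median of the list was -0.06 against -0.01 over all genes, and it became 0.08 when arrays were set to equal housekeeping signal. In 19 members the groups did not overlap (41.1% of all genes). With only the 6 null arrays in the fit, 13 members were called (27.4% of all genes), and with the WT_EC arrays left out, an alternative chosen after seeing the data, 14 (25.4%). The member count thus rose with that of all genes.

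Thbd read 9.69, 9.40 and 9.30 in null_EB, 12.01, 11.95 and 11.87 in null_EC, 10.97, 10.54 and 10.35 in WT_EC and 8.90, 8.69 and 8.89 in ESC. The 4 groups did not overlap, with null_EC highest and ESC lowest. Between null_EB and null_EC the difference was 5.58-fold (9.46 ± 0.203 in null_EB and 11.94 ± 0.0742 in null_EC, SD, n = 3 each; log2 difference -2.48, SE 0.151, adjusted p = 1.52e-05 in limma), and null_EB was also 2.23-fold below WT_EC (log2 difference -1.16, adjusted p = 0.000595). Vcam1 read 12.96, 12.86 and 12.84 in null_EB, 11.77, 11.55 and 11.75 in null_EC, 12.55, 12.63 and 12.10 in WT_EC and 10.62, 10.34 and 10.57 in ESC. Its groups did not overlap either, with null_EB highest. It was 2.30-fold higher in null_EB (12.89 ± 0.0647) than in null_EC (11.69 ± 0.125; SD, n = 3 each; log2 difference 1.2, SE 0.136, adjusted p = 0.000684 in limma). Thbd and Vcam1 thus took opposite positions in the null groups.

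Efnb2, the arterial ephrin ligand, read 10.62, 10.38 and 10.39 in null_EB, 10, 9.86 and 10 in null_EC, 10.14, 9.88 and 9.75 in WT_EC and 8.95, 8.84 and 8.93 in ESC. The null_EB arrays were the highest, and the difference from null_EC was 0.51 (SE 0.105, adjusted p = 0.0192 in limma). Its receptor Ephb4, the venous partner, lay between 9.18 and 9.70 on all 12 arrays and was called in none of the 6 comparisons. Heg1 differed by -0.80 between null_EB and null_EC (SE 0.196, adjusted p = 0.0404 in limma), with no overlap. With any single null array left out 2 members were called, Thbd and Vcam1, and the calls of Efnb2 and Heg1 were lost, with adjusted p of 0.055 to 0.0962 for Efnb2 and 0.0666 to 0.163 for Heg1. The adjusted p with any single one of those arrays left out was at most 0.000243 for Thbd and 0.00558 for Vcam1.

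The members added with the 6 null arrays alone were Procr and Ptprb, higher in null_EB by 0.57 and 0.37, and Fli1, Cd34, Mmrn1, Gata2, Egfl7, Robo4 and Esam, lower by 0.58, 0.69, 0.41, 0.31, 0.30, 0.26 and 0.23 log2 units in null_EB. Without the WT_EC arrays Cd93 was added. Procr, the endothelial protein C receptor, read 9.54, 9.59 and 9.60 in null_EB, 9.11, 8.85 and 9.06 in null_EC, 11.09, 9.09 and 9.49 in WT_EC and 8.30, 8.25 and 8.10 in ESC. It is the partner of Thbd in protein C activation, and in the null groups it stood the other way round, with more signal in null_EB. Only WT_EC 1 had more Procr signal than null_EB.

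In null_EB against WT_EC, 5 of the 41 genes were called (18.5% of all genes), Efnb2 and Vcam1 higher (12.3% of all genes) and Thbd, Heg1 and Lmo2 lower (6.19%), and in 8 the groups did not overlap (28.3% of all genes). Efnb2 was higher by 0.54 (adjusted p = 0.00524) and Vcam1 by 0.46 (adjusted p = 0.0373), and Heg1 was 2.00-fold lower (log2 difference -1.0, adjusted p = 0.00537). Lmo2, an adaptor in Tal1 and GATA complexes, read 7.62, 7.37 and 7.52 in null_EB, 7.53, 7.61 and 7.72 in null_EC, 8.23, 7.63 and 8.35 in WT_EC and 7.82, 7.90 and 7.84 in ESC. It was lower in null_EB than in WT_EC by 0.56 log2 units (adjusted p = 0.0298), with WT_EC 2 the nearest to null_EB. The median of the list was -0.23, against 0.02 over all genes. Without WT_EC 2, 22 members were called, 3 higher and 19 lower (32.6% of all genes, 20.3% higher and 12.3% lower), and with any single null_EB array left out 3 were called. The Vcam1 and Lmo2 calls were lost in each of those fits and without WT_EC 3, and that of Lmo2 also without WT_EC 1, at an adjusted p of at most 0.116 and 0.115. With the 6 arrays of these groups alone or with equal housekeeping signal, Thbd was the 1 gene of these 5 that stayed called in both, and voomaByGroup also ended the Efnb2 call (adjusted p of at most 0.224 for Efnb2 and 0.0929 for Heg1). This comparison shares its null_EB arrays and its WT_EC arrays with the other 2 comparisons among the lung cells.

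**Figure D4:**
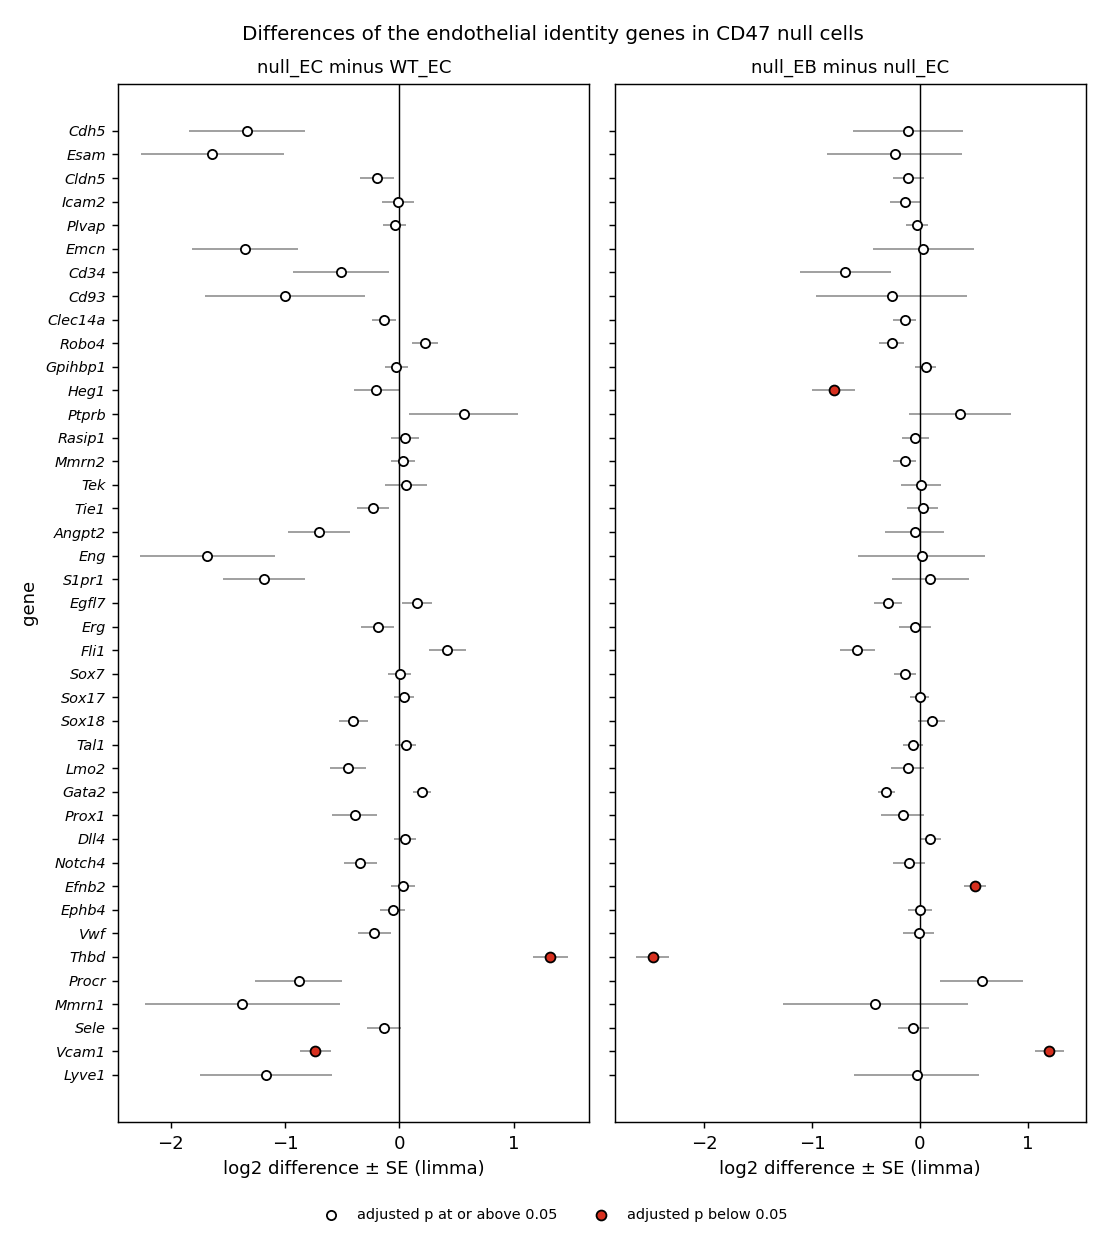
Log2 difference with its standard error (points and bars) of the 41 members in null_EC minus WT_EC and null_EB minus null_EC, with called members in a filled marker. Thbd and Vcam1 are called in both, in opposite directions, and Cdh5, Esam and Eng lie below 0 with wide errors in null_EC minus WT_EC.

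Against the stem cells, the junction markers that were high on WT_EC 1 and WT_EC 3 showed small differences in the null cells. Cdh5 differed from ESC by 0.08 in null_EB (SE 0.510, adjusted p = 0.915 in limma) and 0.19 in null_EC (SE 0.510, adjusted p = 0.783), and Esam by 0.02 (SE 0.624, adjusted p = 0.982) and 0.26 (SE 0.624, adjusted p = 0.757). The SE rests on a spread estimated over all 12 arrays, the WT_EC arrays included. Another fit held only the arrays of null_EC and ESC, and is described for Cdh5, Esam, Tie1, Erg, Emcn, Cd93, Icam2 and Robo4. The same small differences of 0.19 for Cdh5 (adjusted p = 0.029 in limma) and 0.26 for Esam (adjusted p = 0.0119) were called in it, as were Cd93 at 0.65, Icam2 at 0.35 and Robo4 at 0.30. Of all 41 members it called 18 higher and 13 lower, beside 37.5% and 29.2% of all genes. In the like fit of null_EB and ESC, Cd93 at 0.39 and Icam2 at 0.21 were called. Of all 41 members that fit called 13 higher and 12 lower (33.6% and 28.1% of all genes). Icam2, a ligand of leukocyte integrins on resting endothelium, and Robo4, a guidance receptor of endothelium, were within 1 log2 unit on all 12 arrays. In WT_EC against ESC, Cdh5 was higher by 1.52 (adjusted p = 0.0303) and Esam by 1.89 (adjusted p = 0.028), although in both WT_EC 2 lay at or below the ESC arrays, and Emcn was higher by 1.42 (adjusted p = 0.0272). Leaving out any array of the 2 groups other than WT_EC 2 ended the calls of Cdh5 and Esam (adjusted p of at most 0.1 and 0.0845), and leaving out any ESC array ended that of Emcn (at most 0.0708). With the 6 arrays of these groups alone none of the 3 was called (adjusted p of 0.134, 0.129 and 0.126 for Cdh5, Esam and Emcn). Without WT_EC 2 the difference from ESC was 2.34 for Cdh5 and 2.88 for Esam, and both were called. WT_EC 2 is the WT_EC array with the least signal of both genes, so these calls follow in part from which array was left out.

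Many members had signal below the median of all genes. That median was 8.01 over all arrays, and 29 members lay below it on all 6 null arrays and 16 on all 12 arrays. Signals of different probe sets are not on 1 scale and no detection calls were used, so these counts do not show which genes were silent. The share of all genes that lay below the median on the same arrays was not counted. Above it on all 12 arrays were 8 members: Egfl7, Cd34, Efnb2, Ephb4, Thbd, Procr, Vcam1 and Heg1. Fli1 and Ptprb joined them on the 6 null arrays. Over the 12 arrays 20 members (48.8%) spanned less than 1 log2 unit, against 61.1% of all genes, and over the 6 null arrays 31 (75.6%) spanned less than 0.5, against 84.8% of all genes. Plvap, which forms the diaphragms of fenestrated endothelium, Gpihbp1, which holds lipoprotein lipase on capillaries, Dll4, the Notch ligand of arteries and tip cells, Clec14a, a lectin of tumour vessels, Sele, the selectin of activated endothelium, and Vwf, the clotting factor stored in endothelium, spanned less than 1 log2 unit over the 12 arrays. Vwf read 7.75 to 7.99 in null_EB, 7.88 to 7.95 in null_EC, 8.09, 7.80 and 8.5 in WT_EC and 8.08 to 8.15 in ESC. Dll4 was called higher in null_EB than in ESC, by 0.32 log2 units, but not without null_EB 2, null_EB 3, ESC 2 or ESC 3. Sox18, the SoxF factor of lymphatic and blood vessels, read 7.49 to 7.75 in null_EB, 7.43 to 7.58 in null_EC, 8.15, 7.59 and 8.0 in WT_EC and 7.71 to 7.78 in ESC.

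A further 52 genes of the endothelial programme that are not members were counted beside them. Of the 52, 4 were called higher in null_EC than in WT_EC and 9 lower (8.12% and 5% of all genes). At 2-fold or more, these were 1 higher and 6 lower. The share of all genes called at that size is not given here for this comparison, so these 2-fold counts have no background beside them. In null_EB, 1 was called higher than in null_EC and 3 lower (2.9% and 2.5% of all genes). Against WT_EC, null_EB had 2 higher and 12 lower (12.3% and 6.19%). Against ESC, 8 were called higher and 19 lower in null_EB (23% and 21.8% of all genes). In null_EC 9 and 18 were (25.1% and 22.9%), and in WT_EC 19 and 13 (21.7% and 25.4%). Ace, angiotensin-converting enzyme of lung capillaries, read 8.38, 8.26 and 8.40 in null_EB, 6.97, 7.15 and 7.31 in null_EC, 10.19, 8.79 and 12 in WT_EC and 7.16 to 7.30 in ESC, and the WT_EC mean was 9.08-fold above that of null_EC (null_EC minus WT_EC -3.18 on the log2 scale, adjusted p = 0.00448 in limma). Unlike Cdh5, Ace, the factor Mef2c (7.35 to 7.49 in null_EC and 7.98, 8.72 and 9.30 in WT_EC) and the receptor Notch1 (8.16 to 8.27 in null_EC and 8.98, 9.42 and 9.74 in WT_EC) were above the null_EC arrays on WT_EC 2 as well. In ESC, Mef2c read 6.77 to 6.98, but Notch1 read 10.44 to 10.55, above every WT_EC array. Kdr, the VEGF receptor, had the largest called fold of the 52 in null_EB against null_EC, at 7.26 to 7.40 in null_EB and 10.52 to 10.83 in null_EC (log2 difference -3.36, adjusted p = 8.04e-06 in limma). Kdr read 8.51, 8.61 and 9.35 in WT_EC and 6.84 to 6.98 in ESC, so that its signal was highest in null_EC. Pecam1, the CD31 antigen, read 6.53 to 6.59 in null_EB, 6.57 to 6.61 in null_EC, 6.80, 6.46 and 7.56 in WT_EC and 8.84 to 8.87 in ESC.

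The members were set against Cdh5 by Pearson correlation over the 12 arrays, as a description. The arrays share groups, and WT_EC 1 and WT_EC 3 set most of the spread of Cdh5. Esam (r = 0.965), Erg (0.929) and Emcn (0.924) had the patterns most like it among the members, followed by Clec14a (0.877), Lyve1 (0.862) and Lmo2 (0.823). No SD limit was set for members, and Erg (SD 0.19 over the 12 arrays) and Clec14a (SD 0.16) varied little, so their r describes small differences. Ptprb (-0.397), Ephb4 (-0.349) and Tek (-0.218) were the least like it. Outside the list, genes with an SD of at least 0.5 over the arrays were ranked, with predicted genes, clone names, small RNA genes and receptors of smell left out. Among them, Rbfox1 (0.989), Hspb7 (0.983), Sparcl1 (0.982), Ccl3 (0.982) and Esm1 (0.981) had the highest r. Esm1, endocan of endothelial tip cells, read 6.43 to 6.62 in null_EB, 6.32 to 6.54 in null_EC, 8.06, 6.18 and 8.32 in WT_EC and 6.10 to 6.46 in ESC. Ccl3, a chemokine of macrophages, read 6.29 to 6.53, 6.46 to 6.57, 11.71, 6.11 and 11.38, and 6.52 to 6.77 in the same order, so that a gene of another cell type shared the pattern.

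RefSeq promoters were at hand for 22 of the 41 members, as 29 windows of 300 bases, and were searched on both strands beside all 32851 windows of that length. The ETS core GGAA stood in 28 of 29 member windows (96.6%) and in 96% of all. The longer ETS site CCGGAA stood in 0 member windows and in 14.9% of all, the GATA motif AGATAA in 3 (10.3%, against 11.2%), the Sox motif ACAAT in 8 (27.6%, against 31%) and the E-box CANNTG in 19 (65.5%, against 72.3%). The kappa B motif stood in 4 (13.8%, against 8.46%). The CCGGAA site contains the core GGAA. These matches describe letters in short windows, and windows of 1 gene can overlap.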

How the data were processed

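Gene expression was measured on 12 whole-transcript arrays in 4 groups of 3. The deposited values are log2 signals that the authors made with Affymetrix Expression Console 1.2.1 and RMA (background correction, quantile normalization and median polish), per the submitters' processing notes. The label protocol names a human array, but the probe sets match the mouse platform's gene table, which was used; build and annotation are not given in the sources used here. Of 35556 probe sets, 21789 had 1 gene, and the brightest per gene over the 12 arrays left 19938 genes. Of the members, 1 (Heg1) had 2 probe sets.

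Differences were tested with limma 3.58.1 in R 4.3.3 (lmFit and eBayes, a mean per group over all 12 arrays, Benjamini-Hochberg over 19938 genes, threshold 0.05), with no further scaling. The fit was tested on simulated data. Alternatives were the arrays of the 2 groups alone, array weights, voomaByGroup, a filter that keeps genes reaching 6 on 3 or more arrays, testing each probe set, equal housekeeping signal, the replicate number as a block, and each array left out. Leaving out the WT_EC arrays was added after seeing the data. Arrays have no read depth, and 3 per group limit the precision; no detection calls were used.

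Members and gene lists were chosen with earlier results of these data known. Each member was named, with values per array for members called among the lung cells or called at 2-fold against ESC, for those with a range of at least 2 over the WT_EC arrays, and for Cdh5, Tek, Tie1 and Erg. Genes outside the list were named as the 5 highest correlations with Cdh5, within the limits given with them, and as called further endothelial genes. Pecam1, Ptprc, Lyz2, Msln and Upk3b were chosen after their values were seen. Promoters are RefSeq's (GRCm38.p6).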

Additional observations from a re-analysis of the deposited data

How the results depend on the processing

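With 3 arrays a group, a permutation test of 1 gene cannot go below p = 0.1, so calls rest on the spread pooled over genes and groups. Of 60 member calls in the 6 comparisons, 35 were kept under every alternative, 25 were lost under at least 1 and 0 were reversed. In null_EC against WT_EC the count of called members moved from 2 to 1 with the arrays of the 2 groups alone, 11 with array weights, 7 with voomaByGroup, 4 with equal housekeeping signal and 2 to 18 with each array left out. In null_EB against null_EC it moved from 4 to 13, 13, 11 and 2 in the same order of settings, 2 to 2 with each array left out and 14 without the WT_EC arrays, and the median moved from -0.06 to 0.0792 with equal housekeeping signal. In null_EB against WT_EC it moved from 5 to 1, 19, 8 and 2, and 3 to 22 with each array left out. In null_EB against ESC it moved from 19 to 29 with array weights (74.6% of all genes), 12 with housekeeping (28.4%) and 15 to 17 with each array left out, and the median to 0.24 with housekeeping. In null_EC against ESC it moved from 15 to 31 with 2 groups (66.7% of all genes), 30 with array weights (71.8%), 26 with voomaByGroup (66.2%), 31 without the WT_EC arrays (66.8%) and 13 to 16 with each array left out, and the median to 0.17 with housekeeping. In WT_EC against ESC it was 12 to 25 with each array left out. Of all genes, the share called moved too, between 2.95% and 27.3% in null_EC against WT_EC and between 0.928% and 40.1% in null_EB against null_EC. It ran from 3.85% to 32.6% in null_EB against WT_EC. Against ESC it ran from 28.4% to 74.6% in null_EB, 26.7% to 71.8% in null_EC and 31.3% to 56.2% in WT_EC. The cause was not tested, beyond the fewer arrays in the fits that leave arrays out.

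Equal housekeeping signal moved the differences of all genes by -0.25 in null_EC minus WT_EC up to 0.32 in WT_EC minus ESC and turned the sign of 42 of the 246 member differences, 0 of them called. Among the genes called under some alternative, it turned Gata2 in null_EC minus WT_EC (-0.0485), Lmo2 in null_EB minus null_EC (0.0239), Sox18 (0.0687) and Ephb4 (0.0156) in null_EB minus ESC, Sox7 in null_EC minus ESC (0.0019), and Cldn5 (0.16), Mmrn2 (0.061) and Notch4 (0.17) in WT_EC minus ESC. With each array left out, the difference ran from -1.65 to 0.13 for Cd93 and -0.45 to 0.0314 for Heg1 in null_EC minus WT_EC, -0.1672 to 0.009 for Sox7 in null_EC minus ESC, and in WT_EC minus ESC from -0.50 to 1.01 for Eng, -0.34 to 0.0116 for Cldn5 and -0.32 to 0.0556 for Notch4. Above the highest ESC array, a margin of 1 log2 unit left 6, 5 and 5 members on the null_EB arrays, 7, 5 and 7 on the null_EC arrays and 9, 6 and 14 on the WT_EC arrays, against 5.27% to 7.89% of all genes. Deviations of same-numbered arrays from their group means had correlations of -0.256 to 0.225, with 3 of 18 pairs over 0.1. These values had no common sign, but they cannot decide whether same-numbered arrays shared a preparation. The replicate block gave 2, 3, 5, 19, 16 and 16 called members in the 6 comparisons.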
